A study of Canis lupus familiaris with 6 samples.

Results

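The genes described here encode the receptors through which oestrogens, progesterone and, by proposal, bisphenol A (BPA) act, together with 1 shared coregulator. They were chosen by name: the oestrogen receptors ESR1 and ESR2, the oestrogen-related receptors ESRRA, ESRRB and ESRRG, the progesterone receptor PGR, and NRIP1. Of the 8 names chosen, 7 were measured among the 23299 genes of the deposited table, and the membrane oestrogen receptor GPER1 was not analysed here. RNA came from adipose-derived stem cells of dogs, precursor cells taken from fat, after 14 days of adipogenic differentiation. In 3 libraries the cells had received 1 µM BPA, a monomer of polycarbonate plastics, and in 3 libraries the solvent DMSO (control). The medium of both groups, added after 2 days of culture, held 3 inducers: 10 µg/mL insulin, 200 nM rosiglitazone, which activates the fat cell receptor PPARG, and the glucocorticoid dexamethasone at 1 µM. The number of dogs, their breed, sex and age, and whether replicates were separate cultures are unstated in the sources used here, so p-values measure only the spread between these libraries, which may be technical.

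ESR1 and ESR2 are nuclear receptors that bind oestradiol and then activate or repress genes carrying oestrogen response elements. BPA binds both receptors weakly. In human breast and uterine cells PGR is a classical gene switched on by oestradiol through ESR1. The oestrogen-related receptors resemble ESR1 in sequence but bind no oestrogen. ESRRA drives mitochondrial and fatty acid oxidation genes together with PGC-1 coactivators, and human ESRRG binds BPA tightly. NRIP1, also called RIP140, is a corepressor of many nuclear receptors. In mouse fat it holds down oxidative and thermogenic genes, and in human breast cancer cells it is itself an oestrogen-induced gene.

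Values are in TPM, the abundance of a gene's transcripts per unit length as a share of its library, scaled to 1000000. TPM can therefore be compared between genes, but, as a share, it also moves when other genes change. A TPM holds no read depth, so no counting interval can be given. The 6 libraries had between 19649 and 20321 genes above 0. Treatment did not divide them on the first principal component, which held 79.8% of the variance. Scores were -29.9, -0.10 and 61.1 for BPA replicates 1, 2 and 3, against -28.1, 11.3 and -14.4 for control replicates 1, 2 and 3. BPA replicate 3 stood apart, and the changes of the members and the counts of most gene lists are also given without it. Adipocyte markers such as ADIPOQ were detected, at 33.0 ± 7.13 TPM in BPA-treated cells and 10.7 ± 3.53 TPM in control cells (SD, n = 3 each). Stromal markers summed over 9 genes to between 8699 and 34560 TPM with BPA and between 7638 and 14750 TPM in control, mostly from COL1A1, COL1A2, LUM and DCN. Not every stromal marker was abundant. NT5E, named after its values were seen, averaged 0.16 ± 0.057 TPM in BPA-treated cells and 0.19 ± 0.037 TPM in control cells. Endothelial markers summed to at most 0.806 TPM with BPA and 0.687 TPM in control, and the 2 epithelial markers measured to at most 0.305 TPM with BPA and 0.0832 TPM in control. Leukocyte markers summed to between 27.8 and 44.0 TPM with BPA and between 23.0 and 32.7 TPM in control, mostly from CD14, which averaged 33.9 ± 7.99 TPM in BPA-treated cells and 24.3 ± 4.85 TPM in control cells. The macrophage receptor gene CSF1R lay the other way, at 2.03 ± 0.32 TPM in BPA-treated cells and 2.45 ± 0.15 TPM in control cells, without overlap. The defining leukocyte gene PTPRC, named after its values were seen, reached at most 0.0048 TPM with BPA and 0.0066 TPM in control.

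ESRRA was by far the most abundant of these genes, and the oestrogen receptors themselves were scarce. Over the 6 libraries ESRRA averaged 39.2 ± 9.29 TPM (SD, n = 6), 12.0 times the next gene, and lay on average at the 87.7th percentile of all genes in the table. PGR followed at 3.26 ± 0.45 TPM and NRIP1 at 2.96 ± 0.38 TPM, close to the 58.8th and 57.8th percentiles. ESR1 averaged 0.0952 ± 0.0136 TPM, below NRIP1 by a factor of 31.1, and lay at the 28.2nd percentile. ESR2 had a median of 0.0056 TPM and a highest value of 0.0129 TPM. The range of ESRRA did not overlap that of PGR, nor NRIP1 that of ESR1, nor ESR1 that of ESR2. Over the 6 libraries together PGR and NRIP1 overlapped each other, as did ESR2, ESRRB and ESRRG. The pooled order within these sets does not exceed their spread, and the order of PGR and NRIP1 differed between the groups.

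**Figure D1:**
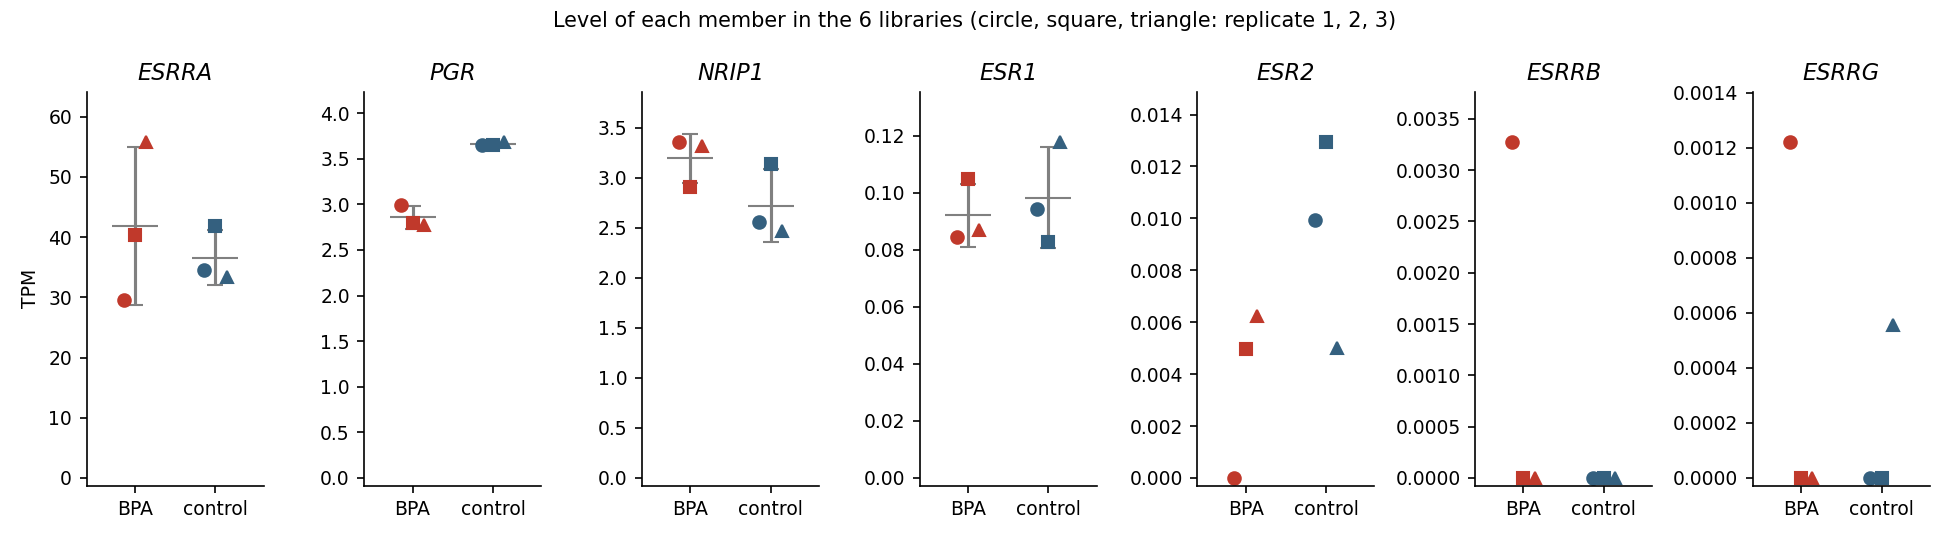
TPM of the 7 measured genes in each library (vertical axes, 1 scale per gene), with the BPA libraries left and the control libraries right; symbols mark replicates 1, 2 and 3. Grey bars give the mean and SD where no library was at 0. For PGR the 3 BPA libraries lie between 2.78 and 2.996 TPM, under the 3 control libraries at 3.65 to 3.68 TPM, while the groups overlap for the other genes.

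The progesterone receptor was the 1 member whose groups did not overlap. PGR was at 2.996, 2.80 and 2.78 TPM in BPA replicates 1, 2 and 3, against 3.65, 3.65 and 3.68 TPM in control replicates 1, 2 and 3. Every BPA library lay below every control library, and the 3 control libraries were almost equal. The means were 2.86 ± 0.12 TPM in BPA-treated cells and 3.66 ± 0.016 TPM in control cells (SD, n = 3 each), a ratio of 0.78. On the log2(TPM + 1) scale the change was -0.27 (SE 0.08, 95% interval -0.47 to -0.07), where the added 1 understates changes of genes at so few TPM. By limma, a linear model with a variance estimate shared across genes, the unadjusted p was 0.0156 and the adjusted p was 0.901 over 12277 tested genes, so PGR did not pass the threshold of 0.05. It ranked number 144 by p. At an unadjusted p under 0.05, 1.7% of tested genes lay lower and 1.87% higher with BPA, 3.58% together. These are 209 lower and 230 higher genes, a balance that turned under other scalings, to 201 lower and 107 higher with median centring and 197 lower and 135 higher with quantile normalization. Groups without overlap were found for 9.37% of tested genes, 3.98% with BPA the lower group and 5.38% with BPA the higher. Of the 3 members tested, PGR lay lower by both of these rules, and 0 lay higher by either.

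The difference in PGR did not follow the main axis of the libraries or hang on 1 library for its size. Its change was -0.26 without BPA replicate 3, and between -0.30 and -0.26 whichever library was left out. With the first principal component as a covariate it was -0.26 (limma, adjusted p = 0.135; from 0.0022, with array weights that did not converge, to 1 over all alternatives). The unadjusted p lay between 0.0573 and 0.0633 when BPA replicate 2 or any 1 control library was left out. In bulk RNA, fewer cells that express PGR and less PGR RNA per cell cannot be told apart. Smooth muscle markers, 3 of 3 tested, also lay below control on average, though ACTA2 and TAGLN overlapped between the groups. CNN1, without overlap, was at 199 ± 24.5 TPM in BPA-treated cells and 243 ± 14.0 TPM in control cells, a change of -0.30 on the log2 scale (SE 0.12). MYH11, too scarce to be tested, was named after its values were seen. It lay above control on average, at 0.335 ± 0.18 TPM in BPA-treated cells and 0.232 ± 0.018 TPM in control cells, with overlap. The sum over the 4 smooth muscle markers measured ran from 8449 to 10460 TPM with BPA and from 9706 to 10880 TPM in control. Adipocyte markers lay above control for 7 of 8 tested, all but LEP (6 of 8 without BPA replicate 3), where 56.6% of all tested genes lay above. The sum of the adipocyte markers ran from 653 to 905 TPM with BPA and from 612 to 726 TPM in control. The part of these cell states in the PGR difference was not tested.

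The genes most like PGR across the 6 libraries were SERPINE2, ADGRG6 and NREP. Likeness was the mean absolute difference between profiles centred and scaled to unit SD, which was 0.0586 for SERPINE2, 0.112 for ADGRG6 and 0.128 for NREP, against a median of 1.16 over all tested genes. Without BPA replicate 3 the measure was 0.0466, 0.131 and 0.155, and SERPINE2 was still the nearest of all tested genes, while ADGRG6 ranked 16 and NREP 25. SERPINE2, a secreted inhibitor of serine proteases, averaged 34.8 ± 1.14 TPM in BPA-treated cells and 49.0 ± 0.16 TPM in control cells. ADGRG6, an adhesion G protein-coupled receptor, averaged 2.32 ± 0.17 TPM in BPA-treated cells and 3.03 ± 0.077 TPM in control cells. NREP averaged 3.10 ± 0.15 TPM in BPA-treated cells and 4.22 ± 0.20 TPM in control cells. Like PGR, these 3 genes had no overlap between the groups, which their choice by likeness to PGR all but fixed in advance. The profiles rest on the same 6 libraries, in which all 12277 tested genes were searched.

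NRIP1 lay higher in the BPA libraries on average, with overlap. It was at 3.36, 2.91 and 3.32 TPM in BPA replicates 1, 2 and 3, against 2.56, 3.14 and 2.47 TPM in control replicates 1, 2 and 3. BPA replicates 1 and 3 exceeded all controls, and BPA replicate 2 lay under control replicate 2. The means were 3.19 ± 0.25 TPM in BPA-treated cells and 2.72 ± 0.37 TPM in control cells (SD, n = 3 each). The log2 change was 0.17 (SE 0.11, 95% interval -0.10 to 0.45; limma, adjusted p = 0.901), which does not exceed the spread between replicates. Without control replicate 2 the change was 0.25, the highest value among the single-library omissions, and without control replicate 3 it was 0.13, the lowest. The nearest profiles to NRIP1 were those of PURA, ZBTB44 and SMG8, with likeness values of 0.151, 0.157 and 0.171 against a median of 0.985. Without BPA replicate 3 ZBTB44 had the nearest profile of all tested genes, at 0.0511, while PURA ranked 21 at 0.148 and SMG8 ranked 38 at 0.193.

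Averaged over the 6 libraries PGR and NRIP1 were close in abundance, but their order differed between the groups. Within a library, the ratio of PGR to NRIP1 was 0.893, 0.960 and 0.837 in BPA replicates 1, 2 and 3, against 1.43, 1.16 and 1.49 in control replicates 1, 2 and 3. PGR was thus the scarcer of the pair in 3 of 3 BPA libraries and the more abundant in 3 of 3 control libraries. A ratio within a library does not depend on the scaling to a common total. The ratio of PGR to NR3C1, the gene of the glucocorticoid receptor that dexamethasone activates, was 0.160, 0.156 and 0.175 with BPA and 0.229, 0.222 and 0.231 in control. Both ratios were chosen after the values were seen, and neither was tested. Both reuse the PGR values, whose groups already did not overlap, so they add no separate evidence. Ratios also formed of ESRRA to PGR, NRIP1, NR3C1 and ESR1, and of PGR to ESR1, overlapped between the groups. PGR to ESR1 was 35.5, 26.7 and 31.9 in BPA replicates 1, 2 and 3, against 38.7, 44.0 and 31.3 in control replicates 1, 2 and 3.

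ESRRA did not differ between the groups beyond its spread, and it varied widely among the BPA libraries. It was at 29.5, 40.3 and 55.7 TPM in BPA replicates 1, 2 and 3, against 34.6, 41.9 and 33.3 TPM in control replicates 1, 2 and 3. BPA replicates 1 and 3 were the lowest and the highest of all 6 libraries, with every control between them. The means were 41.9 ± 13.2 TPM in BPA-treated cells and 36.6 ± 4.63 TPM in control cells (SD, n = 3 each). The log2 change was 0.15 (SE 0.24, 95% interval -0.44 to 0.74; limma, adjusted p = 0.901). Without BPA replicate 3 the sign turned, to -0.08, and without BPA replicate 1 the change was 0.37. With the first principal component as a covariate it was -0.04. BPA replicate 3 and then control replicate 2 had both the highest ESRRA and the highest component scores, and BPA replicate 1 had the lowest of both. The summed stromal markers were 8699, 10320 and 34560 TPM in BPA replicates 1, 2 and 3 and 7638, 14750 and 9628 TPM in control replicates 1, 2 and 3, again highest in BPA replicate 3 and then in control replicate 2. Collagen I carried this order, with COL1A1 at 2398, 4330 and 24500 TPM in BPA replicates 1, 2 and 3, against 2170, 8114 and 3903 TPM in control replicates 1, 2 and 3. COL1A2 was likewise highest in BPA replicate 3 and then in control replicate 2. The stromal proteoglycan genes LUM and DCN were instead lowest in BPA replicate 3, at 2005 and 1005 TPM. These 4 stromal genes were named after their values were seen. The part of the stromal genes in the ESRRA values was not tested. The nearest profiles to ESRRA were those of STX3, REM2 and B4GALT1, with likeness values of 0.0569, 0.0595 and 0.0644 against a median of 1.1. This set depended on BPA replicate 3: without it the values were 0.0943, 0.107 and 0.123, and the 3 genes ranked 15, 20 and 38 in likeness among all tested genes.

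**Figure D2:**
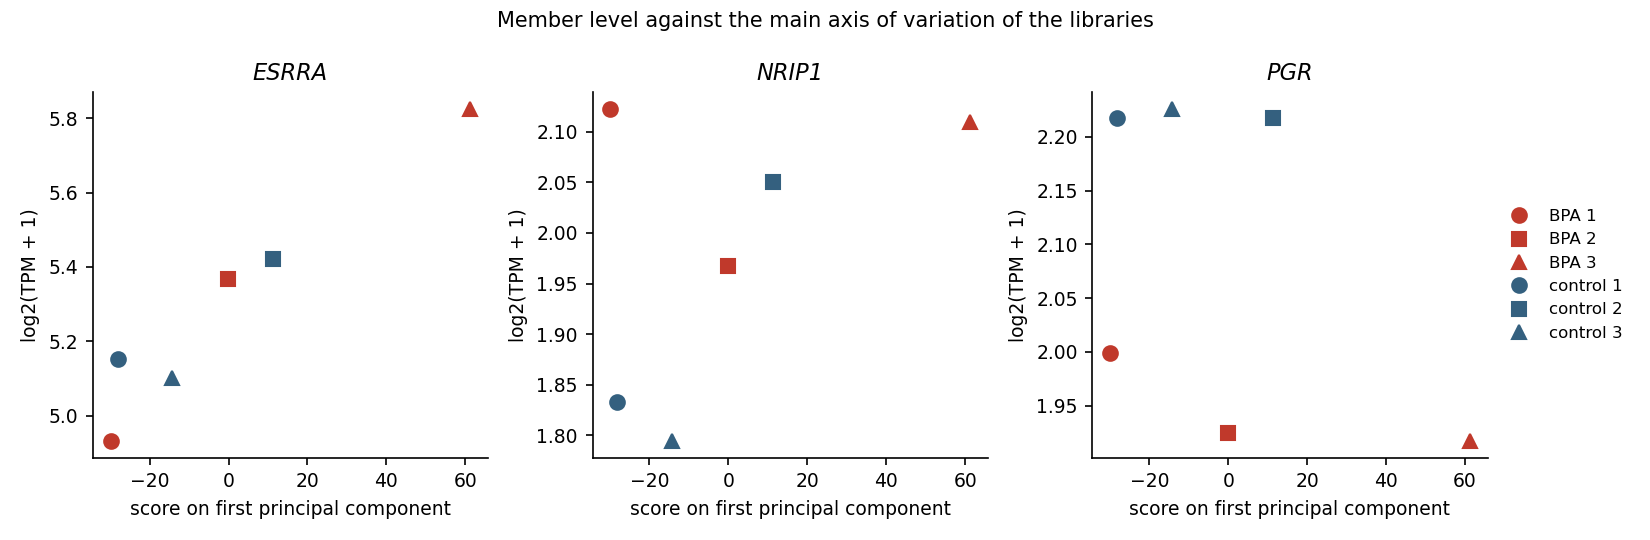
Level on the log2(TPM + 1) scale (vertical) of ESRRA, NRIP1 and PGR against each library's score on the first principal component of all tested genes (horizontal, no unit); red symbols are BPA libraries and blue symbols control libraries. ESRRA is highest in BPA replicate 3, with a score of 61.1, and lowest in BPA replicate 1, with a score of -29.9, while the PGR values split by treatment at every score.

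**Figure D3:**
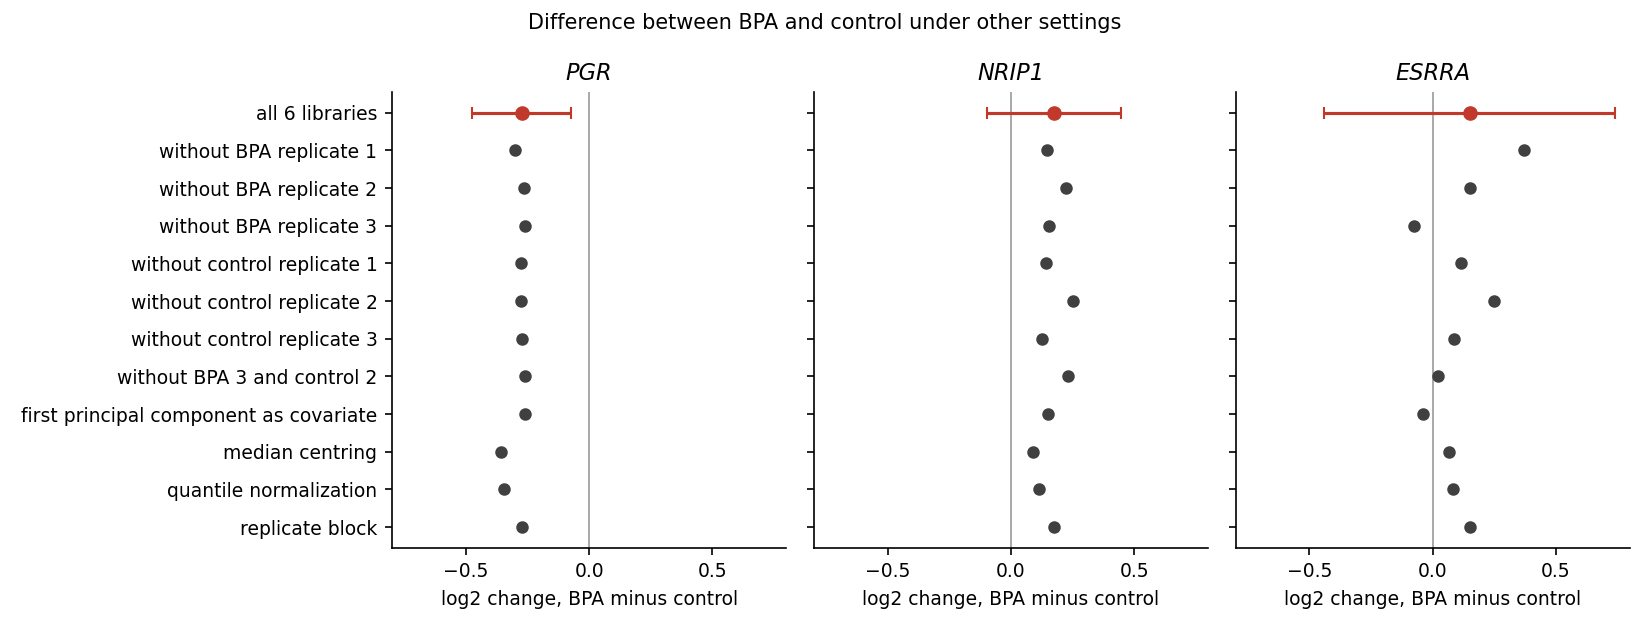
Log2 change of BPA minus control (horizontal, log2(TPM + 1) scale) for PGR, NRIP1 and ESRRA with all 6 libraries (red, bar for the 95% interval) and under other settings (grey points). PGR stays between -0.36 and -0.26 in the settings drawn and NRIP1 stays above 0, while ESRRA crosses 0 without BPA replicate 3 and with the first principal component as a covariate.

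The oestrogen receptors and the other oestrogen-related receptors lay under the expression filter (log2(TPM + 1) averaging 1 or more) and were compared by exact permutation (two-sided), where 3 against 3 libraries can give no p below 0.1. ESR1 was at 0.0845, 0.105 and 0.0870 TPM in BPA replicates 1, 2 and 3, against 0.0944, 0.0829 and 0.118 TPM in control replicates 1, 2 and 3. The groups overlapped throughout, with a log2 difference of -0.0082 and an exact permutation p of 0.7. ESR2 was listed at 0 in BPA replicate 1 and at 0.00495 and 0.00624 TPM in BPA replicates 2 and 3, against 0.00994, 0.0129 and 0.00499 TPM in control replicates 1, 2 and 3. Here 2 of 3 BPA libraries lay under all controls, though BPA replicate 2 all but equalled control replicate 3. For ESR2 the exact permutation p was 0.2. ESRRB was listed at 0.0033 TPM in BPA replicate 1 and at 0 in the other 5 libraries. ESRRG was listed at 0.0012 TPM in BPA replicate 1, at 0.00056 TPM in control replicate 3 and at 0 in the other 4 libraries. For ESRRB and ESRRG the exact permutation p was 1. The smallest value above 0 in the whole table was 0.00017 TPM, and at unknown depth such entries may stand for very few reads.

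The glucocorticoid receptor was abundant and the mineralocorticoid receptor scarce. NR3C1 averaged 17.5 ± 1.51 TPM in BPA-treated cells and 16.1 ± 0.28 TPM in control cells (log2 change 0.11, SE 0.10; limma, adjusted p = 0.901). The mineralocorticoid receptor gene NR3C2, named after its values were seen, averaged 0.0766 ± 0.027 TPM in BPA-treated cells and 0.0629 ± 0.018 TPM in control cells. Outside the nuclear receptor family, the progesterone receptor membrane components were more abundant than PGR. PGRMC1, a haem-binding membrane protein, averaged 161 ± 19.6 TPM in BPA-treated cells and 154 ± 2.83 TPM in control cells. Of the 5 tested genes of that list 4 lay above and 1 below control, with a median log2 change of 0.057, but 2 of 5 lay above without BPA replicate 3, with a median of -0.025. With all libraries 56.6% of all tested genes lay above control, with a median of 0.03. The lower gene was NENF, a secreted relative of PGRMC1, at 65.4 ± 7.14 TPM in BPA-treated cells and 75.1 ± 3.96 TPM in control cells, without overlap (log2 change -0.20, SE 0.11). Among other receptors proposed to bind BPA, 1 of 4 tested lay above control, and 2 of 4 without BPA replicate 3. PPARG, also of this list, lay under the expression filter and was named after its values were seen. It was at 0.357, 0.299 and 0.169 TPM in BPA replicates 1, 2 and 3. Control replicates 1, 2 and 3 were at 0.129, 0.117 and 0.099 TPM, so the groups did not overlap. The xenobiotic receptor NR1I3 overlapped at 1.17 ± 0.63 TPM in BPA-treated cells and 1.77 ± 0.20 TPM in control cells. The thyroid hormone receptor THRA was at 3.24, 4.90 and 13.5 TPM in BPA replicates 1, 2 and 3, against 2.49, 5.17 and 3.53 TPM in control replicates 1, 2 and 3, and stood above all control libraries only in BPA replicate 3. The aryl hydrocarbon receptor AHR averaged 3.58 ± 0.21 TPM in BPA-treated cells and 3.62 ± 0.29 TPM in control cells.

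Genes that respond to oestradiol in human breast cancer cells lay on both sides of control. Of 28 measured 19 were tested: 13 lay above and 6 below control, with a median log2 change of 0.16, where 56.6% of all tested genes lay above and their median was 0.03. At an unadjusted p under 0.05 there was 1 gene higher and 1 lower, where 1.87% of all tested genes were higher and 1.7% lower. The adjusted threshold was passed by 0 of the 19, as by 0 of all tested genes. Without BPA replicate 3, 9 of 19 lay above and the median was -0.02. The lower gene was CA12, a carbonic anhydrase at the cell surface, at 11.7 ± 0.50 TPM in BPA-treated cells and 21.4 ± 1.90 TPM in control cells (log2 change -0.82, SE 0.10). The higher gene was the chemokine CXCL12, at 35.3 ± 3.29 TPM in BPA-treated cells and 27.4 ± 3.14 TPM in control cells (log2 change 0.36, SE 0.12). GREB1, the oestrogen-induced cofactor of ESR1, averaged 0.182 ± 0.080 TPM in BPA-treated cells and 0.191 ± 0.020 TPM in control cells. Cathepsin D (CTSD) was at 145, 220 and 371 TPM in BPA replicates 1, 2 and 3, against 139, 226 and 157 TPM in control replicates 1, 2 and 3, highest in BPA replicate 3. GREB1 and CTSD were named after their values were seen.

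Known ESRRA target genes lay on both sides of control. Of the 16 tested target genes known mostly from mouse heart, muscle and fat, 9 lay above and 7 below control, with a median log2 change of 0.02 (0.03 over all tested genes). Without BPA replicate 3, 15 of 16 lay above, where 7077 of all 12277 tested genes did. The median was then 0.12, against 0.02 over all tested genes. The 1 gene at an unadjusted p under 0.05 was PDK4, the kinase that restrains pyruvate oxidation and that glucocorticoids also induce, at 207 ± 9.89 TPM in BPA-treated cells and 149 ± 19.4 TPM in control cells. Of the PGC-1 coactivators that ESRRA works with, PPARGC1A averaged 0.0333 ± 0.0031 TPM in BPA-treated cells and 0.0395 ± 0.0053 TPM in control cells, and PPARGC1B 1.61 ± 0.91 TPM in BPA-treated cells and 0.961 ± 0.26 TPM in control cells. The related PPRC1 was more abundant, at 6.91, 8.30 and 29.97 TPM in BPA replicates 1, 2 and 3, against 6.88, 12.4 and 7.90 TPM in control replicates 1, 2 and 3. These 3 coactivator genes were named after their values were seen.

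The machinery shared by these receptors was expressed in both groups. Beside the counts below, 56.6% of all tested genes lay above control with all libraries. As in the other list paragraphs, the genes named are those of smallest p in their list, unless said otherwise. Such a choice favours groups without overlap, which were found for 9.37% of all tested genes. Coactivators lay above control for 17 of 19 tested genes (median 0.14), but for 11 of 19 without BPA replicate 3 (median 0.06), and 0 had an unadjusted p under 0.05. PRMT1, an arginine methyltransferase, was 1 of the 2 lower coactivators, at 90.0 ± 8.08 TPM in BPA-treated cells and 101 ± 4.37 TPM in control cells. DDX5, an RNA helicase, averaged 851 ± 74.7 TPM in BPA-treated cells and 768 ± 28.3 TPM in control cells. NCOA1, the first described steroid receptor coactivator, averaged 3.73 ± 0.52 TPM in BPA-treated cells and 3.19 ± 0.24 TPM in control cells, without overlap. Corepressors lay above control for 11 of 15, and for 7 of 15 without BPA replicate 3. NCOR1, which recruits histone deacetylases, averaged 11.1 ± 1.23 TPM in BPA-treated cells and 9.31 ± 0.35 TPM in control cells, without overlap (log2 change 0.23, SE 0.11). GPS2, a subunit of the NCOR complex, averaged 70.6 ± 10.2 TPM in BPA-treated cells and 57.9 ± 6.51 TPM in control cells, also without overlap. Chaperones that hold unliganded steroid receptors lay above control for 9 of 14 with all libraries and for 13 of 14 without BPA replicate 3. Without that library 7077 of all 12277 tested genes lay above control. HSP90AA1 averaged 895 ± 42.9 TPM in BPA-treated cells and 801 ± 26.6 TPM in control cells, and the co-chaperone FKBP5, a glucocorticoid-induced gene, 95.8 ± 8.12 TPM in BPA-treated cells and 83.3 ± 0.46 TPM in control cells. Both had no overlap between groups. In all, 4 of the 14 chaperone genes lay higher without overlap, where 5.38% of all tested genes were higher without overlap, and 0 of the 14 had an unadjusted p under 0.05.

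Genes that NRIP1 represses in mouse fat were measured beside it. Of the 7 tested 5 lay above and 2 below control, with a median log2 change of 0.16, and 7 of 7 lay above without BPA replicate 3 (median 0.10). CPT1B, FABP3 and CYCS, named for their place in both lists, were also among the tested ESRRA target genes. The counts of these lists are therefore not independent. Of all 12277 tested genes 56.6% lay above control with all libraries and 7077 without BPA replicate 3, with medians of 0.03 and 0.02. CIDEA, a lipid droplet protein of brown and white fat, averaged 2.90 ± 0.99 TPM in BPA-treated cells and 1.35 ± 0.33 TPM in control cells, without overlap (log2 change 0.70, SE 0.23). The thermogenic UCP1, named after its values were seen, was listed at 0 in the 3 BPA libraries, against 0.0384, 0.0667 and 0 TPM in control replicates 1, 2 and 3. Factors that share or open oestrogen receptor sites lay above control for 8 of 10 tested (median 0.23) and for 5 of 10 without BPA replicate 3. SP1, a zinc finger factor that tethers ESR1 to GC-rich promoters, averaged 22.5 ± 1.35 TPM in BPA-treated cells and 19.7 ± 1.27 TPM in control cells, without overlap.

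Enzymes and signalling partners completed the set. Of all 12277 tested genes 56.6% lay above control with all libraries and 7077 without BPA replicate 3. Steroid-metabolizing genes lay above control for 11 of 15 tested (median 0.12), and for 11 of 15 without BPA replicate 3. HSD11B1, which regenerates active glucocorticoid inside cells, averaged 6.67 ± 1.77 TPM in BPA-treated cells and 4.38 ± 0.41 TPM in control cells (log2 change 0.49, SE 0.20), with overlap. HSD17B4, a peroxisomal enzyme that also oxidizes oestradiol, averaged 11.6 ± 0.54 TPM in BPA-treated cells and 10.1 ± 0.32 TPM in control cells, without overlap. HSD17B7, an enzyme of cholesterol synthesis that also forms oestradiol, averaged 5.90 ± 0.31 TPM in BPA-treated cells and 5.13 ± 0.23 TPM in control cells, without overlap. Genes of membrane oestrogen signalling lay above control for 9 of 14 and for 5 of 14 without BPA replicate 3. PIK3R1, the regulatory subunit of PI3-kinase, averaged 43.2 ± 0.65 TPM in BPA-treated cells and 34.4 ± 1.84 TPM in control cells (log2 change 0.32, SE 0.08). The caveolar scaffold CAV1, to which membrane ESR1 binds, averaged 153 ± 21.2 TPM in BPA-treated cells and 190.0 ± 7.85 TPM in control cells (log2 change -0.32, SE 0.12). Both had no overlap between groups, and each had an adjusted p of 0.901 by limma.

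**Figure D4:**
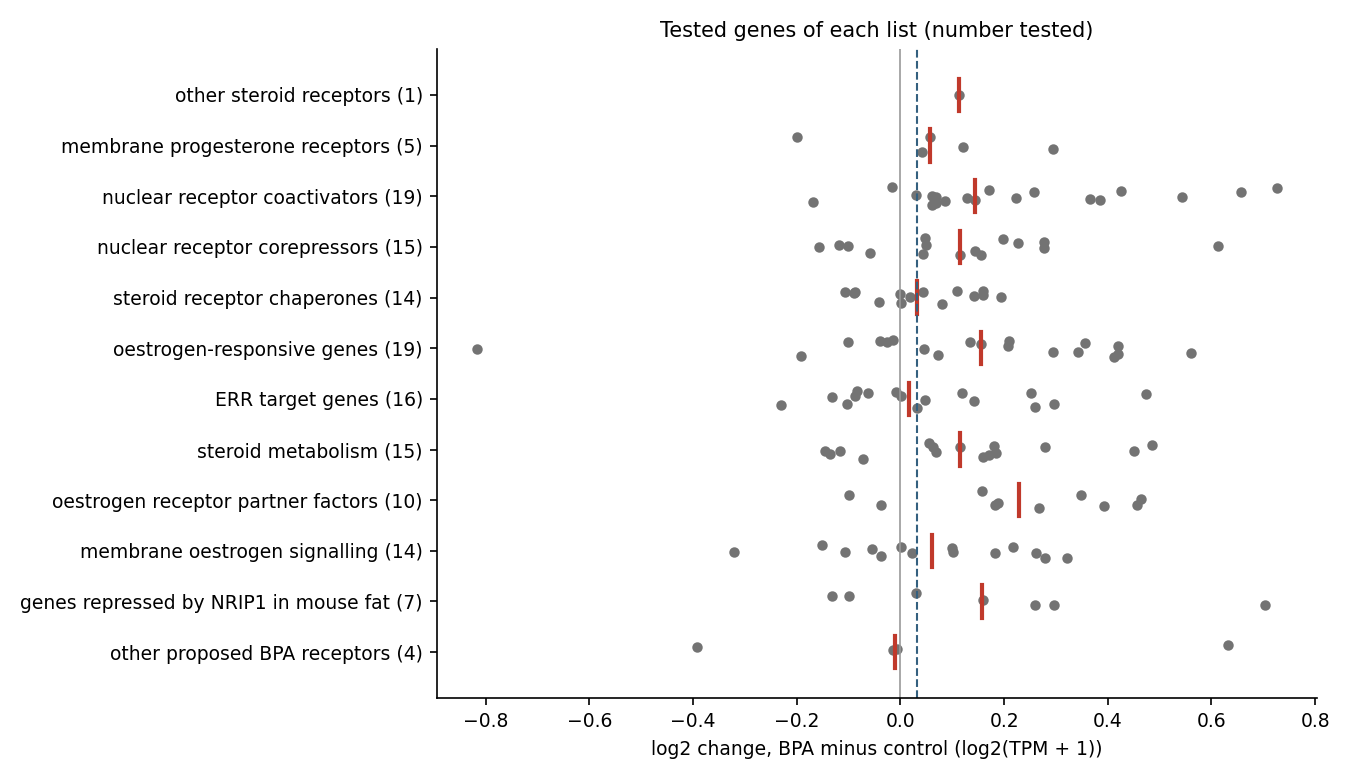
Log2 change of BPA minus control (horizontal, log2(TPM + 1) scale) of every tested gene (grey points) in 12 gene lists, with the number tested in brackets; red ticks are list medians and the dashed line is the median of all tested genes, 0.03. Every list with more than 1 tested gene has points on both sides of that line, and CA12 lies farthest left at -0.82.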

How the data were processed

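Per the labels' protocols, total RNA was column-purified and a stranded mRNA kit was used to make the libraries. The authors deposited a single table whose log2 values they call normalized log TPM. Unlogged, with 1 subtracted, each column sums to 1000000, which identifies the scale as log2(TPM + 1). No aligner, counting method, genome build or annotation is given in the sources used here, so no coordinates are printed, and reads of overlapping or antisense genes cannot be told apart. All 7 measured members matched a RefSeq symbol of UU_Cfam_GSD_1.0. Groups and replicate numbers came from the labels.

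The 12277 genes whose log2(TPM + 1) averaged 1 or more over 6 libraries were fitted with limma 3.58.1 in R 4.3.3 (empirical Bayes with trend, two-sided, no covariate) and adjusted by Benjamini-Hochberg at 0.05. The test was checked on simulated data. Members under the filter were compared by exact permutation. Genes named, unless said otherwise, were all members and genes drawn from 2 sets: the up to 3 tested genes of smallest p of each list and the 3 nearest profiles of each tested member. Members and lists were chosen with earlier results of these data known. Lists received no set test and are described by counts and medians. Alternatives covered the filter, pseudocounts of 0.1 and 5, scaling, the variance model, array weights, replicate numbers as blocks, a covariate for the first principal component, and omission of libraries.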

Additional observations from a re-analysis of the deposited data

How the results depend on the processing

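PGR stayed below control in 19 of 19 alternatives (log2 change from -0.36 to -0.14, the smallest with a pseudocount of 5) and NRIP1 above control in 19 of 19 (0.09 to 0.25). ESRRA kept its direction in 18 of 20: it was -0.0409 after adding the first principal component to the model, and ran from -0.0756 to 0.37 as single libraries were left out, negative without BPA replicate 3. The cause was not tested. With array weights PGR (-0.30), NRIP1 (0.14) and ESRRA (0.22) passed the adjusted threshold, as did 4629 genes in all (6169 at an unadjusted p under 0.05), but the weights did not converge, and BPA replicate 2 received a weight of 6490 against at most 1.24 for any other library. ESRRB and ESRRG turned to -0.0825 and -0.0838 under median centring, which shifts a value of 0 by the whole library's offset. Leaving out single libraries gave -0.0183 to 0.0045 for ESR1, 0 to 0.0024 for ESRRB and -0.00027 to 0.00061 for ESRRG.

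Genes past the adjusted threshold numbered 0 with the settings reported, 6 without a filter, 4 with that component in the model, 2 without BPA replicate 3 and control replicate 2, and 0 to 1 with single libraries left out. The 4, named after their values were seen, were CA9, CXCL8, POSTN and DKK1. The 1, without BPA replicate 3, was MIR29C-1, also among the 2, with LOC119875712. The unadjusted p was under 0.05 for 439 genes, against 1066 without a filter, 230 with a mean of at least 3, 264 with the replicate block, 1945 with the component in the model, 721 without BPA replicate 3 and control replicate 2, and 176 to 949 with single libraries left out. Deviations of same-numbered libraries from their group means correlated at 0.718, -0.44 and -0.232 for numbers 1, 2 and 3. The labels do not state whether the numbers pair libraries. With 3 libraries per group these correlations cannot decide it. With the replicate block PGR had an unadjusted p of 0.0671 by limma and 0 genes passed. Depth is unknown, which limits ESR1, ESR2, ESRRB and ESRRG most.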
